A study of Mus musculus with 4 samples.

Results

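BRCA1 and the proteins it works with were measured through 10 genes: Brca1, Bard1, Palb2, Brca2, Brip1, Rbbp8, Topbp1, Nbn, Uimc1 and Brcc3. They were chosen by name, as every non-control probe of the array whose printed gene name was one of these, which gave 13 probes for 10 genes out of 39429 probes for 30919 gene names. Where a gene had more than 1 probe, the probe with the highest mean over the arrays stood for it, and every probe is given. Total RNA was hybridised in a single colour (Cy3) to an Agilent mouse array with probes of 60 bases. There were 2 samples labelled Pak1 -/- and 2 labelled Pak1 +/+. All 4 were breast cancer cells from tumours of MMTV-Neu mice, which carry the Neu (Her2, gene Erbb2) oncogene under the mammary tumour virus promoter, and the Pak1 +/+ controls carried it too. Every sample had been kept in low calcium medium with 5% horse serum, deprived of serum for 3 h and given EGF for 15 min. The study's methods call the cells lines derived from tumours, and the design names different tumours within a group, so each sample was taken as a line from 1 tumour and the spread between the samples of a group was that between lines. Pak1 encodes a protein kinase that acts below the small GTPases Rac and Cdc42. The question was how the RNA levels of BRCA1 and its partners differed with the Pak1 genotype.

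BRCA1 is a large nuclear protein with a RING domain at one end, through which it pairs with BARD1 to form a ubiquitin ligase, and BRCT repeats at the other end, which bind phosphorylated partners. Those partners form separate complexes: PALB2 with BRCA2, which act in homologous recombination, the helicase BRIP1 with TOPBP1, which acts in replication checkpoints; CtIP (gene Rbbp8), which works with the MRE11, RAD50 and NBN complex to resect broken DNA ends, and the BRCA1-A complex, in which UIMC1 (RAP80) reads ubiquitin chains and BRCC3 cuts them. In breast tissue the pathway is known for its inherited tumour suppressors and for the repair of double-strand breaks and cross-links by homologous recombination. RNA of most of these genes is known to rise as cells enter S phase.

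The array reads each transcript through its 60-base probes, so the sequences of 3 probes are shown: the Brca1 probe, and a further probe each of Bard1 and Palb2 that did not stand for its gene but repeated its measurement elsewhere in the locus. The annotation of the deposited arrays places them in mouse build mm9, on the minus strand. They are written in lower case with no base marked. The Brca1 probe lies at chr11:101359283-101363319 and its ends are 4037 bases apart in the genome, so it bridges an intron. Of the Bard1 probes the third lies at chr1:71094217-71094276, and the second Palb2 probe at chr7:129256813-129256872. Exon or UTR positions of the probes were not annotated here.
Brca1 probe: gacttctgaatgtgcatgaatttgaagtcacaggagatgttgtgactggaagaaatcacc
Bard1 probe 3: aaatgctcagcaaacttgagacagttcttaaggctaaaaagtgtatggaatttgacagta
Palb2 probe 2: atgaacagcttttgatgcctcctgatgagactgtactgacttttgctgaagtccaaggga

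Promoter sequence was available for 8 of the 10 genes from RefSeq (GRCm38.p6), in windows from 250 bases before to 50 bases after the annotated start. Nbn and Rbbp8 had no entry. These windows were searched on both strands for the letters TTCCCGC or TTGGCGC, cores of sites for the E2F factors that drive S phase genes, for TTTGAA, the core of the cell cycle homology region (CHR), and for CCAAT. Read on the other strand, CCAAT can share letters with TTGGCGC, which happened in none of the 8 windows. An E2F core was found in 4 of 8 windows (Brca1, Bard1, Brca2 and Topbp1), and 6.81% of all 32851 promoters in the table held one. The CHR core was in 2 of 8 (Bard1 and Uimc1) beside 17.9% of all promoters, and CCAAT in 5 of 8 (Palb2, Brip1, Brca1, Uimc1 and Brcc3) beside 37.4%. The Brip1 window was the one among them with 3 CCAAT matches, 99, 67 and 34 bases before the start. A match is a description of letters and not a site, and no link between a match and the RNA levels was tested. The windows with an E2F core are printed up to 30 bases after the start, with every matched motif in capitals. They lie at chr11:101551926-101552205 on the minus strand for Brca1, chr1:71102943-71103222 on the minus strand for Bard1, chr5:150522371-150522650 on the plus strand for Brca2 and chr9:103305077-103305356 on the plus strand for Topbp1.
Brca1 promoter: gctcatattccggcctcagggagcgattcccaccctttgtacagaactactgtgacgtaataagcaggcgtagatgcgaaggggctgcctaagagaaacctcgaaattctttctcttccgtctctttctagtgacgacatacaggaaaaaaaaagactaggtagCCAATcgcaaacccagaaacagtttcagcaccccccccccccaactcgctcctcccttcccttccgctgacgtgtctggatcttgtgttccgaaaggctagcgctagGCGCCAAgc
Bard1 promoter: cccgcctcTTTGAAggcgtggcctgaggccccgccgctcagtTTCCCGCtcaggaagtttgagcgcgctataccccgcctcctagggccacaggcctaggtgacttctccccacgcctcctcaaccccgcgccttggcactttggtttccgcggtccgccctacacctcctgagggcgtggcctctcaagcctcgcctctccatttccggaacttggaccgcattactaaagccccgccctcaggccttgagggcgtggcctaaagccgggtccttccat
Brca2 promoter: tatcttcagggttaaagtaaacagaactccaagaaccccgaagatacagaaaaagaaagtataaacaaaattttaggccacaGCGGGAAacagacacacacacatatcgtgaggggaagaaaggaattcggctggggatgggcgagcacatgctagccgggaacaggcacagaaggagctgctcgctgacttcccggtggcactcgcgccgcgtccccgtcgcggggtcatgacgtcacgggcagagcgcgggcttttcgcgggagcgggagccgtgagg
Topbp1 promoter: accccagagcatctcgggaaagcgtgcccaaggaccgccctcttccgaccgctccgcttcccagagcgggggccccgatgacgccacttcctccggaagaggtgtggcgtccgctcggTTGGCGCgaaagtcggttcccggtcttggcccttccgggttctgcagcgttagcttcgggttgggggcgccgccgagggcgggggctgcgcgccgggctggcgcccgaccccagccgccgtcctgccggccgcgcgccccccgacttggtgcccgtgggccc

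**Figure D1:**
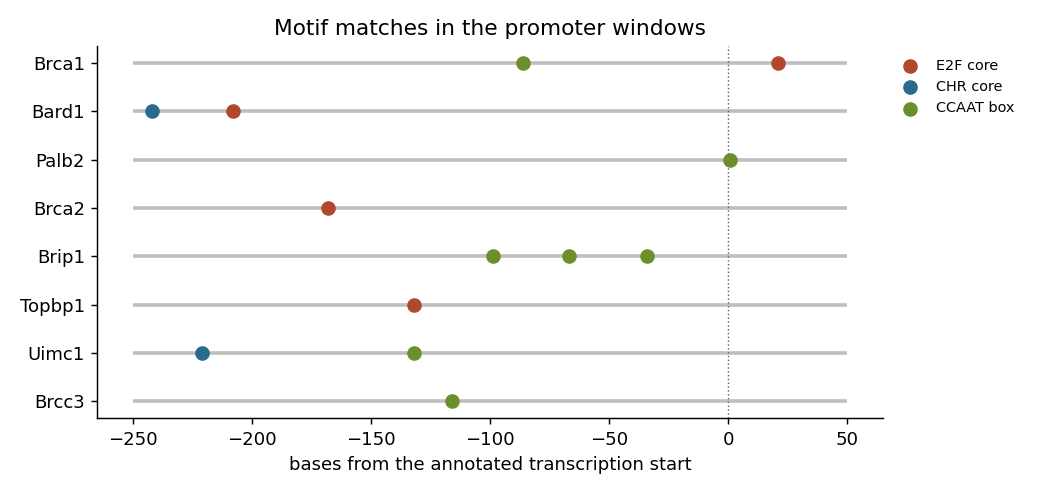
Motif matches in the promoter windows of 8 genes, with the distance in bases from the annotated start on the x axis (negative before the start), 1 grey line per gene and a dot at the first base of each match. E2F cores lie in the windows of Brca1, Bard1, Brca2 and Topbp1, with that of Brca1 21 bases after the start and the others 132 to 208 bases before it.

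On the arrays as a whole the median spot intensity was 322 to 331, the median local background 39 to 42, and 62.2 to 70.4% of the probes stood well above background. Values correlated at r = 0.997 across probes within each group and at 0.954 to 0.959 between groups. All 4 arrays lay on 1 slide and were read in 1 scan, the Pak1 -/- samples at its first positions and the Pak1 +/+ samples at the last, so position and genotype cannot be told apart. The probe for Pak1 itself read 12.21 and 12.25 (normalized log2 intensity) in the samples labelled Pak1 -/- and 12.04 and 12.04 in those labelled Pak1 +/+, a difference of 0.19 ± 0.07 (SE, n = 2 per group, limma, adjusted p = 0.070). It was not lower in the samples labelled Pak1 -/-, and whether it lies in the deleted part of the gene is not given in the sources used here, so it did not check the labels that every direction below rests on. Erbb2 was lower by label, at 11.91 and 11.95 against 12.26 and 12.21 (difference -0.31 ± 0.07, SE, limma, adjusted p = 0.0202), a call lost without Pak1 -/- replicate 1 (0.0663) or either Pak1 +/+ sample (0.112 and 0.0795). Whether the Erbb2 probe of this mouse array also reads the Neu oncogene that these cells carry was not tested. Of 8 epithelial markers 7 stood well above background on all arrays, among them Epcam, Krt8 and Krt18. So did 6 of 9 leukocyte markers (Ptprc, Cd3e, Itgam, Adgre1, Cd68 and Csf1r), 3 of 6 fibroblast markers (Col1a1, Col1a2 and Pdgfra), 2 of 5 endothelial markers (Pecam1 and Kdr) and 0 of 3 adipocyte markers. Lyz2 (myeloid), Col3a1, Dcn and Lum (fibroblast), Tek (endothelial) and Adipoq (adipocyte) stood well above background on no array.

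Of the 10 genes, 9 were lower in the samples labelled Pak1 -/- and none was higher at an adjusted p below 0.05 (limma, n = 2 per group). Over all 21304 genes tested, 50.9% were called, 27.8% lower and 23.1% higher, so a call alone was common in these data. The median difference of the 10 genes was -0.72 on the log2 scale against -0.05 for all genes tested, and 8 of the 10 lay below the lower quartile of all genes, -0.355. The sizes were uneven: Brca2 and Brca1 fell by 2-fold or more, Palb2, Bard1, Brip1 and Topbp1 by less, Rbbp8 and Nbn less again, Brcc3 by the smallest called amount, and Uimc1 was not called. By probe, 12 of 13 were called lower and none higher. Of all 27229 probes tested 51.9% were called, 28.6% lower and 23.3% higher. Every one of the 13 probes stood well above background on all 4 arrays, none was saturated, and each was a single spot per array. In bulk RNA, fewer cells that express a gene and less of its RNA per cell cannot be told apart.

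**Figure D2:**
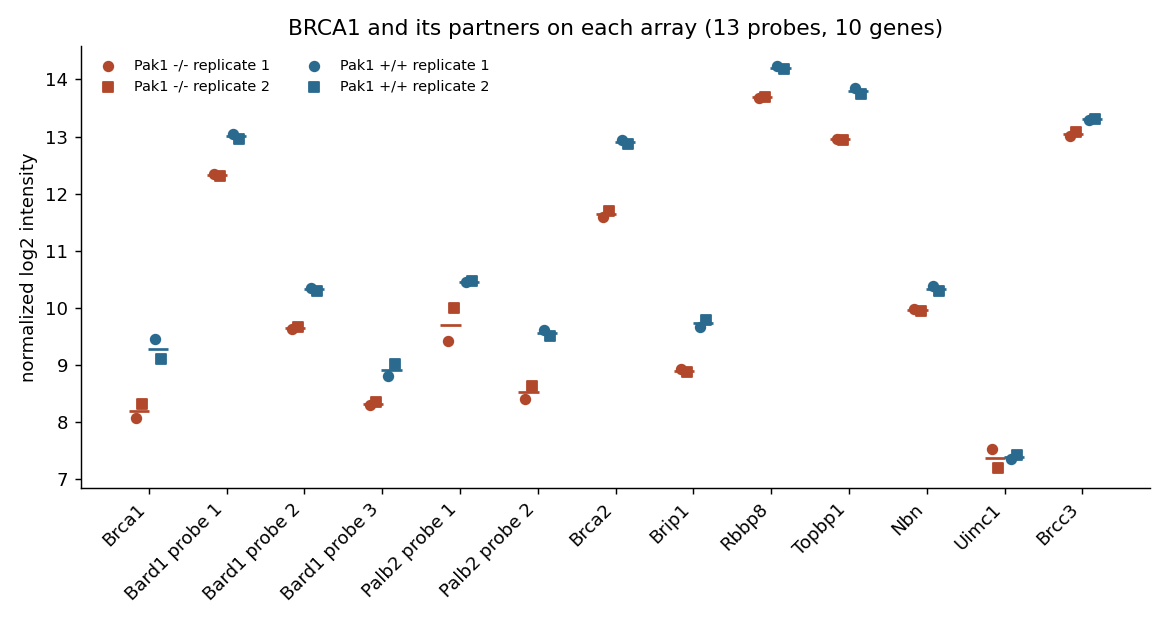
Normalized log2 intensity (y axis) of the 13 probes of BRCA1 and its partners on the 4 arrays, with circles and squares for replicates 1 and 2, red for samples labelled Pak1 -/-, blue for Pak1 +/+, and a line at each group mean (n = 2). The groups are apart for every probe except that of Uimc1, and heights of different probes are not comparable.

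Brca1, the scaffold of all these complexes, read 8.07 and 8.33 (normalized log2 intensity) in the Pak1 -/- samples and 9.46 and 9.12 in the Pak1 +/+ samples. Both Pak1 -/- values lay below both Pak1 +/+ values. The difference was -1.09 ± 0.16 (SE, 95% interval -1.50 to -0.68, limma, adjusted p = 0.0051), a level of 0.469 of that in Pak1 +/+ cells. Among all genes tested, 4.88% had a difference as low or lower. The Brca1 probe was dim as scanned, at 251 and 318 intensity units in Pak1 -/- and 699 and 514 in Pak1 +/+ samples, over local backgrounds of 32 to 51.

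Bard1 encodes the RING partner without which BRCA1 is unstable, and its 3 probes gave close answers. The probe standing for the gene, at chr1:71074294-71074353 (mm9, minus strand), read 12.34 and 12.30 in Pak1 -/- and 13.05 and 12.95 in Pak1 +/+ samples, without overlap. Its difference was -0.68 ± 0.07 (SE, 95% interval -0.87 to -0.48, limma, adjusted p = 0.00228). A second probe 608 bases away differed by -0.68 (adjusted p = 0.00198). The third, 19923 bases from the first, read 8.30 and 8.35 against 8.81 and 9.02 and differed by -0.59 (adjusted p = 0.00753). The difference of the first probe minus that of the third was -0.09 on the log2 scale, so probes far from each other in the locus gave nearly the same change.

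Palb2, whose product bridges BRCA1 and BRCA2, was lower by both of its probes but not with the same precision. The brighter probe, at chr7:129251027-129251086 (mm9, minus strand), read 9.42 and 9.997 in Pak1 -/- and 10.46 and 10.46 in Pak1 +/+ samples. The groups did not overlap, but the Pak1 -/- samples lay apart from each other (SD 0.411), the widest spread of any of the 13 probes. Its difference was -0.76 ± 0.20 (SE, 95% interval -1.29 to -0.22, limma, adjusted p = 0.0333). The second probe, 5786 bases away, read 8.41 and 8.64 against 9.62 and 9.504, a difference of -1.04 ± 0.11 (SE, adjusted p = 0.00196). For the brighter probe 1 sample decided the size: the difference was -0.46 without Pak1 -/- replicate 1 and -1.05 without replicate 2, and the call was lost without Pak1 +/+ replicate 1 (adjusted p = 0.0842) or replicate 2 (0.0853). Taking the mean of both probes in place of the brighter one gave -0.90 (adjusted p = 0.00845).

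Brca2, which acts on resected DNA in homologous recombination, was lower by more than 2-fold. Its probe, at chr5:151372225-151372284 (mm9, plus strand), read 11.59 and 11.69 in the Pak1 -/- samples against 12.93 and 12.87 in the Pak1 +/+ samples. Both Pak1 -/- values lay far below both Pak1 +/+ values, and samples of a group lay close together. The difference was -1.26 ± 0.08 (SE, 95% interval -1.46 to -1.06, limma, adjusted p = 0.000533), a level of 0.417 of that in Pak1 +/+ cells, and 3.51% of all genes tested were as low or lower.

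Among the proteins that bind the BRCT repeats, Brip1 (the FANCJ helicase) read 8.93 and 8.88 against 9.68 and 9.78 on its probe at chr11:86011372-86011431 (mm9, minus strand). Its difference was -0.83 ± 0.08 (SE, 95% interval -1.03 to -0.62, limma, adjusted p = 0.00153). Topbp1, the BRCT scaffold that activates the checkpoint kinase ATR, read 12.96 and 12.94 against 13.84 and 13.75 at chr9:103252324-103252383 (mm9, plus strand). Both genes were lower in each Pak1 -/- sample than in either Pak1 +/+ sample, with a difference of -0.84 ± 0.07 for Topbp1 (SE, 95% interval -1.04 to -0.65, adjusted p = 0.00126). Rbbp8 (CtIP), which starts the resection of broken ends, had 1 probe at chr18:11901214-11901273 (mm9, plus strand) and read 13.67 and 13.70 against 14.23 and 14.18. That difference was smaller, -0.52 ± 0.07 (SE, 95% interval -0.70 to -0.34, adjusted p = 0.00403). The 519 genes tested on chromosome 18 had a median of -0.22. The medians of the other chromosomes with a gene of the set were 0.213 (chromosome 4, Nbn), 0.04 (13, Uimc1), -0.04 (1, Bard1), -0.06 (7, Palb2), -0.12 (11, Brca1 and Brip1), -0.14 (X, Brcc3) and -0.19 (5, Brca2), and close to 0 for chromosome 9 (Topbp1).

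Nbn, the subunit that brings MRE11 and RAD50 to breaks and binds the kinase ATM, read 9.98 and 9.95 in Pak1 -/- and 10.39 and 10.29 in Pak1 +/+ samples on its probe at chr4:15906456-15906515 (mm9, plus strand). The difference of -0.38 ± 0.07 (SE, 95% interval -0.57 to -0.18, limma, adjusted p = 0.0137) was opposite in sign to the median of the 1327 genes tested on chromosome 4. The call was lost without Pak1 -/- replicate 2 (adjusted p = 0.0534) and without Pak1 +/+ replicate 1 (0.0806).

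The BRCA1-A members had the smallest differences of the 10 genes. Brcc3, the deubiquitinase of the complex, read 13.003 and 13.08 against 13.29 and 13.31 on a probe that spans 2182 bases at chrX:72693176-72695357 (mm9, plus strand) and so bridges an intron. The groups did not overlap, and the difference was -0.26 ± 0.07 (SE, 95% interval -0.45 to -0.07, limma, adjusted p = 0.0357). It was past the threshold in the full set of 4 samples and lost with any 1 of them left out (adjusted p 0.0553 to 0.159). Uimc1, which recruits BRCA1-A to ubiquitylated chromatin, read 7.54 and 7.21 against 7.35 and 7.44 at chr13:55129275-55129334 (mm9, minus strand), so the groups overlapped. The difference was -0.022 ± 0.13 (SE, adjusted p = 0.9) and its 95% interval -0.36 to 0.32. With Agilent's processed signal the error of this difference was larger, at 0.06 ± 0.259 (SE). The Uimc1 probe was dim, at 136 to 169 intensity units as scanned. The sign of the Uimc1 difference changed without Pak1 -/- replicate 2 (0.14) or Pak1 +/+ replicate 2 (0.020).

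**Figure D3:**
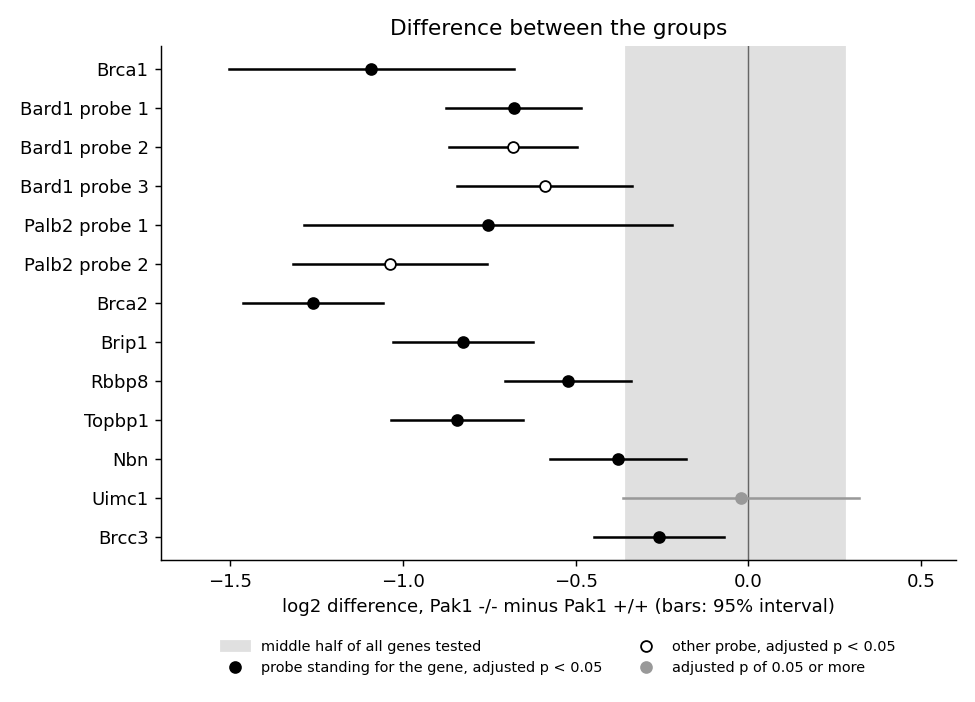
Log2 difference of each of the 13 probes (x axis, Pak1 -/- minus Pak1 +/+), with bars for the 95% interval of the limma fit (n = 2 per group), filled dots for the probe standing for its gene and a grey band from -0.355 to 0.281 between the quartiles of all genes tested. Brca2 (-1.26) and Brca1 (-1.09) lie farthest left, the 3 Bard1 probes lie close together, and Uimc1 sits at -0.022 with an interval across 0.

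In order of size the differences ran Brca2, Brca1, Topbp1, Brip1, Palb2, Bard1, Rbbp8, Nbn, Brcc3 and Uimc1. The order was not fixed: with Agilent's processed signal Brca1 (-1.34) came before Brca2 (-1.28) and Brip1 (-0.91) before Topbp1 (-0.89), and without an offset Brip1 (-0.90) also came before Topbp1 (-0.85). The place of Palb2 moved with the probe used and the Pak1 -/- sample left out. The 95% intervals of neighbours in the order first given overlapped throughout, and no difference between genes was tested. The interval of Brca2, which ends at -1.06, overlapped those of Brca1 and Palb2 alone. Values of 9 of the 10 genes did not overlap between the groups, which held for 77.5% of all genes with 4 values, and 12 of the 13 probes did not, which held for 78.2% of all probes. A fall of 2-fold or more together with a call was found for 2 of the 10 genes (Brca1 and Brca2), and 5.64% of all genes tested fell that far in the Pak1 -/- samples.

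The genes whose values over the 4 arrays lay nearest to those of Brca1, each centred on its own mean and compared over 18506 genes, were Prkar2a (distance 0.0741 on the log2 scale), Prr15 (0.104) and Clnk (0.106). For Brca2 the nearest were Haus1 (0.0265), LOC100039021 (0.0363) and LOC677447 (0.0375). Haus1, a subunit of the augmin complex of the spindle, read 13.91 and 14.02 in Pak1 -/- and 15.24 and 15.21 in Pak1 +/+ samples. Prkar2a, a regulatory subunit of protein kinase A, read 10.91 and 11.07 against 12.22 and 11.92. With 4 arrays in 2 groups, nearness says little more than that the differences were of the same size.

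The other genes of the pathway were read from 6 lists of 43 genes that hold none of the 10. Of the 40 with a tested probe, 25 were lower, 5 were higher and 10 were not called (limma, adjusted p below 0.05), with a median difference of -0.44. Over all genes tested 27.8% were called lower and 23.1% higher, which is the background of each list count below. With any 1 sample left out, 2 or 3 of them were called higher. In the BRCA1-A list 2 of 4 were lower, and the list also held Abraxas2, which is not a subunit of BRCA1-A (-0.18, limma, adjusted p = 0.133). Abraxas1, the scaffold that holds UIMC1 and BRCC3, read 10.24 and 10.28 against 11.08 and 11.11 (difference -0.83, adjusted p = 0.00108), and its other probes differed by -0.64 and -0.60. Babam2 (BRE), which keeps the complex together, read 11.42 and 11.48 against 12.54 and 12.55 (-1.09, adjusted p = 0.000585). Babam1 (MERIT40) read 13.80 and 13.90 against 13.97 and 13.99 (-0.13, adjusted p = 0.21). Within BRCA1-A, Abraxas1 and Babam2 were called lower by more than Brcc3 (-0.26), and Uimc1 and Babam1 were not called. Differences between these genes were not tested.

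All 8 genes of the MRE11 complex and resection list were lower, with a median of -0.61. Mre11a, the nuclease, read 12.04 and 12.08 against 12.76 and 12.72 (-0.68, adjusted p = 0.00189). Rad50, its ATPase partner, differed by -0.53 (adjusted p = 0.00399) on one probe and by -0.57 on the other, so these subunits and Nbn were called in the same direction. The long-range resection enzymes Dna2 (-1.43, adjusted p = 0.000673), Blm (-1.05) and Exo1 (-1.02) differed more. Dna2 read 10.54 and 10.58 against 12.09 and 11.88, and its second probe differed by -1.07.

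Of 10 genes tested in the recombinase list, 6 were lower and 3 higher. Rad51ap1, a cofactor of strand exchange, read 12.97 and 12.98 against 14.21 and 14.20 (-1.23, adjusted p = 0.00039). Rad51b, which also acts in recombination, went the other way at 11.06 and 11.005 against 9.92 and 9.86 (1.14, adjusted p = 0.000561). A second Rad51b probe, well above background on 1 array and not tested, read lower in the Pak1 -/- samples (6.62 and 6.39 against 7.24 and 7.07). The remaining rises in this list were small: Morf4l1, which binds PALB2, by 0.26 (adjusted p = 0.0426, with its second probe at -0.03 and adjusted p = 0.727), and Sem1, which binds BRCA2, by 0.25 (adjusted p = 0.0361).

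The recruitment list had 3 of 5 genes lower, with Mdc1, which reads phosphorylated histone H2AX, at 11.17 and 11.22 against 12.21 and 12.14 (-0.98, adjusted p = 0.000848). Of 7 TOPBP1 partners tested, 5 were lower and none higher. The genes that hold back resection, and so oppose BRCA1, counted 1 of 6 lower and 2 higher, with a median of 0.16. Over all genes tested 27.8% were called lower and 23.1% higher, and whether the counts of this list depart from those shares was not tested. Trp53bp1 (53BP1) read 12.75 and 12.67 against 12.30 and 12.23 (0.45, adjusted p = 0.00798), while its second probe gave 0.23 (adjusted p = 0.129). Shld1, a shieldin subunit, rose by 0.34 (adjusted p = 0.0427).

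Genes of proliferation moved with BRCA1 and its partners: 24 of 28 tested were lower and none was higher, with a median of -0.88. Mki67 read 15.17 and 15.44 against 16.28 and 16.26 (-0.96, adjusted p = 0.00278), Pcna, the replication clamp, differed by -0.87 (adjusted p = 0.00111) and Ccna2 (cyclin A2) by -0.52 (adjusted p = 0.0159). Markers of basal epithelium also moved with the labels, upwards: all 5 (Krt5, Krt14, Trp63, Acta2 and Mylk) were called higher, with summed levels of 74500 to 77900 in Pak1 -/- and 18600 to 19100 in Pak1 +/+ samples. Most of the sum in the Pak1 -/- samples was the probe of Krt14, at 15.93 and 15.89 against 13.05 and 13.10 (2.83, adjusted p = 7.7e-05), while Krt5 differed by 0.50 (adjusted p = 0.028) and Trp63 by 0.43 (adjusted p = 0.0193). The 8 epithelial markers summed to 1160000 to 1170000 against 1050000 to 1080000, with Cdh1, Krt8 and Krt18 higher and Krt7 lower. Leukocyte markers, 6 of 9 above background on all arrays, summed to 52500 to 75100 against 43800 to 48300. Most of that sum was the probe of Itgam, at 16.07 and 15.51 against 15.39 and 15.20 (difference 0.49, adjusted p = 0.11), while the called leukocyte markers, Ptprc (-0.45, adjusted p = 0.00559) and Adgre1 (-1.05, adjusted p = 0.00109), were lower. Fibroblast markers, 3 of 6 above background on all arrays, summed to 1210 to 1370 against 1000 to 1050, and Col1a1 was called higher at 9.31 and 8.88 against 8.03 and 7.93 (1.12, adjusted p = 0.00512). Endothelial markers (2 of 5) summed to 9920 to 10300 against 8990 to 10800, and adipocyte markers (0 of 3) to 263 to 283 against 324 to 328. The part of proliferation or of cell type in the lower levels of BRCA1 and its partners was not tested.

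**Figure D4:**
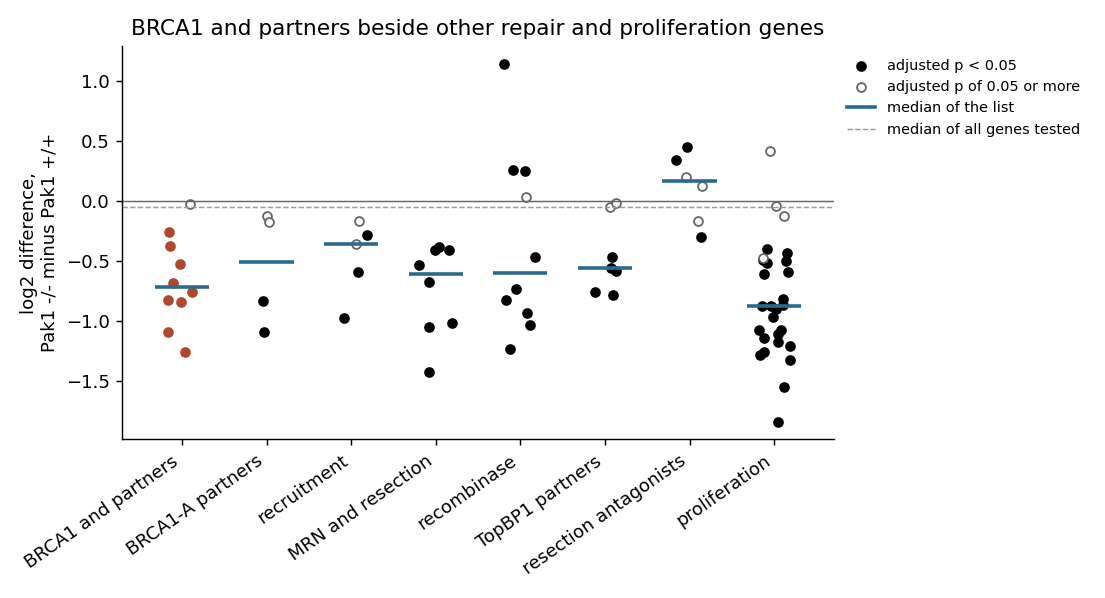
Log2 difference (y axis, Pak1 -/- minus Pak1 +/+) of the 10 genes of BRCA1 and its partners (red) and of the tested genes in 6 pathway lists and a proliferation list (black), 1 dot per gene, filled where the limma adjusted p was below 0.05, with blue lines at list medians and a dashed line at the median of all genes (-0.05). Medians lie at -0.72 for BRCA1 and its partners, -0.88 for proliferation and 0.16 for the resection antagonists, the one list above 0.

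Genes that start next to BRCA1 partners on the opposite strand, chosen after values were seen, share with them the DNA between the starts. Nbr1, an autophagy receptor that starts 152 bases from Brca1 (GRCm38.p6), read 11.33 and 11.43 in Pak1 -/- and 11.40 and 11.29 in Pak1 +/+ samples, so that its groups overlapped (difference 0.04, 95% interval -0.18 to 0.26, limma, adjusted p = 0.712). Dctn5, a dynactin subunit that starts 95 bases from Palb2, read 13.51 and 13.57 against 13.42 and 13.39 (0.13, 95% interval -0.05 to 0.31, adjusted p = 0.182). Mtcp1, 44 bases from Brcc3, differed by -0.21 on its brightest probe (adjusted p = 0.0798), and its other probes gave -0.15 (adjusted p = 0.173) and -0.03 (adjusted p = 0.8, groups overlapping), beside -0.26 for Brcc3. The intervals of Nbr1 and Dctn5 therefore held no fall of the size seen for Brca1 and Palb2 on these arrays, though the difference between neighbours was not tested.

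The size of each difference was set beside 15 other ways of processing the same arrays or leaving out a sample. Of 150 such values, 134 kept their direction and their side of the threshold, 12 lost the call and 4 changed sign. Brca1 (-1.34 to -0.92), Bard1 (-0.73 to -0.60), Brca2 (-1.31 to -1.19), Brip1, Rbbp8 (-0.56 to -0.42) and Topbp1 were called lower in all 15. Those that lost the call were Palb2, Nbn and Brcc3, and those that changed sign were values of Uimc1.

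**Figure D5:**
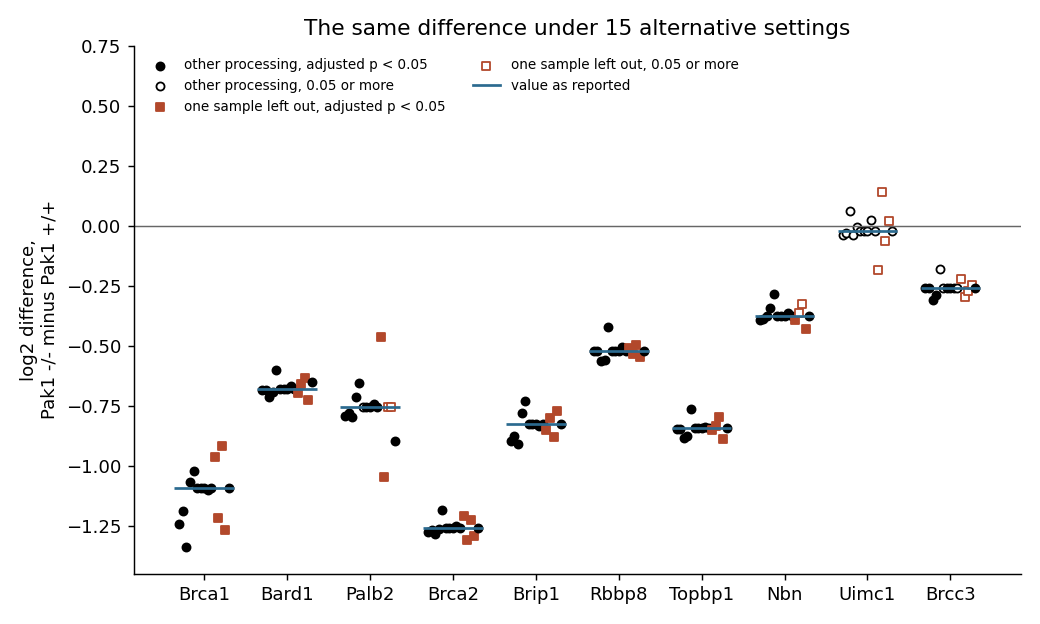
Log2 difference of the 10 genes (y axis, Pak1 -/- minus Pak1 +/+) under 15 alternatives, with circles for other processing, squares for 1 sample left out, filled symbols for a limma adjusted p below 0.05 and a blue line at the value reported. Brca1, Bard1, Brca2, Brip1, Rbbp8 and Topbp1 have filled symbols throughout, Brcc3 has 7 open ones, and Palb2 moves between -1.05 and -0.46 when a Pak1 -/- sample is left out.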

How the data were processed

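Per the file headers, the deposited array files come from Agilent Feature Extraction 9.5.3.1 and give the linear intensity of every spot before any scaling across arrays. A deposited log2 table of these arrays was normexp corrected and quantile normalized, as the authors' methods state. Here the intensities were background corrected (normexp, offset 50), control spots were removed, and the log2 values were quantile normalized with limma 3.58.1 in R 4.3.3. A probe was kept if 2 or more of the 4 arrays, whatever their group, had it well above background (27229 probes, 69.1%). Groups were compared with lmFit and eBayes (two-sided, with no covariate), followed by Benjamini-Hochberg adjustment across every probe kept. The methods state neither offset nor filter. The fit had 2 residual degrees of freedom, and an exact permutation test of 2 against 2 samples cannot give a p below 0.333. The number of arrays limits the precision. Summed marker levels are sums of linear normalized intensities. Steps were tested on simulated data.

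The 10 genes and all lists were chosen with earlier results of these data known. Other genes were named by a rule: 6 pathway genes always (1 of them is not reported here), the 5 largest rises and the 5 largest falls past the threshold in the pathway lists, Mki67, Pcna and Ccna2, and the 3 nearest genes to Brca1 and to Brca2. Alternatives covered offset, scaling, filter, flagged spots, the deposited log2 table, a replicate block, probe averaging, stricter thresholds and leaving out each sample. Human samples of the study were not analysed here.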

Additional observations from a re-analysis of the deposited data

How the results depend on the processing

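With 2 samples per group the calls of small differences were not stable. Of the counts, the 9 of 10 genes called lower became 2 when a 2-fold change was also required, 6 of the 25 lower pathway genes then remained past the threshold, as did 11 of the 24 proliferation genes and 3413 of 14132 probes, and 1 pathway gene was higher. At an adjusted p below 0.01, 6 of the 10 genes were lower, and 8878 probes and 2 pathway genes in the higher direction passed. With a sample left out, 6 to 8 of the 10 genes were called lower (fewest without Pak1 +/+ replicate 1), with no filter on dim probes 7, and with cyclic loess or the replicate block 8. The 5 pathway genes called higher became 3 without an offset, with an offset of 16, with normexp and 75th percentile scaling and with the replicate block, 2 with Agilent's processed signal or no filter on dim probes, and 2 to 3 with a sample left out. The median difference of the 10 genes, -0.72, was -0.7553 with the processed signal, -0.63 with cyclic loess and -0.74 to -0.60 with a sample left out, where a lone sample is assumed to vary like the other group. Uimc1 changed sign with the processed signal (0.062) and the deposited log2 table (0.026), and ranged from -0.186 to 0.14 with a sample left out. Brcc3 lost its call with cyclic loess (adjusted p = 0.0927), no filter (0.0625) and the replicate block (0.0659), and Palb2 with no filter (0.0577). The higher Pak1 signal passed the threshold with cyclic loess alone (0.27, adjusted p = 0.0266). Samples that share a replicate number did not deviate together across probes (r = -0.028). That single value cannot settle whether they were handled as pairs. With the replicate block 13211 probes were called, and of the 10 genes Brcc3 alone lost its call. The cause of these changes was not tested. Dim probes such as that of Uimc1 limit what could be seen.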
